A study of Nannochloropsis oceanica strain IMET1 with 15 samples.

Results

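Transcripts of 5 genes that desaturate or elongate fatty acids were followed across the wild type and the knockout lines of Nannochloropsis oceanica IMET1, a unicellular oleaginous alga of seawater. The 5 genes were taken by name as NO28G00700 (delta-6 desaturase), NO16G01570 (delta-9 desaturase), NO16G02680 (delta-5 desaturase), NO11G02470 (delta-12 desaturase) and NO16G00440 (GNS1/SUR4 elongase family), out of 10493 genes in the expression matrix. The expression files give identifiers only, so the enzyme named for each gene, its delta position included, is an outside assignment that these data do not test. All 5 passed the filter on low values and were among the 9440 genes tested. RNA-seq covered 15 libraries in 5 groups of 3. Lines M1 and M2 (Mutant1 and Mutant2) carry a knockout of NO08G00280, a putative writer of DNA N6-methyladenine (6mA), and lines M3 and M4 (Mutant3 and Mutant4) a knockout of NO06G02500, a candidate eraser of the same mark. The WT is the unedited IMET1 strain, and cultures of all 5 groups were grown under high light. Each line is 1 Cas9-edited clone and its 3 libraries come from triplicate cultures. The p-values below therefore measure the spread between cultures and not that between clones. In the tests of ratios, cultures of both lines of a knockout were pooled as if independent. No p-value below can tell an effect of the knockout from one of the clone.

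Desaturases are membrane enzymes that place a double bond at a set position of an acyl chain, and the delta number gives that position, counted from the carboxyl end. A delta-9 enzyme makes the first double bond in a saturated chain, a delta-12 enzyme turns oleic into linoleic acid, and delta-6 and delta-5 enzymes act before and after an elongation step on the way to arachidonic and eicosapentaenoic acid (EPA). Elongases of the GNS1/SUR4 family, named after yeast genes, catalyze the condensation that lengthens an acyl-CoA. Nannochloropsis stores saturated and monounsaturated chains in its oil droplets and keeps EPA mainly in membrane lipids.

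Values are TPM, transcript abundances per transcript length and per library total, scaled between libraries by the trimmed mean of M-values (TMM-normalized TPM), so the levels of different genes may be set side by side. Sequencing depth was similar among libraries, with StringTie coverage per unit of FPKM, which is proportional to depth, between 4.69 and 6.17 (median 5.26). Correlations of log2 values were 0.939 to 0.954 between libraries of a group and 0.903 to 0.947 between groups, and chloroplast and mitochondrial genes took 0.0271% to 0.0750% of the summed values. The knocked-out genes gave no check of the labels, since an edited gene can still be transcribed. NO08G00280 averaged 8.59 ± 2.55 in M1, 7.26 ± 0.47 in M2 and 8.21 ± 1.44 in the WT (SD, n = 3 each), and NO06G02500 averaged 71.8 ± 4.19 in M3, 55.9 ± 1.90 in M4 and 56.6 ± 1.90 in the WT. With limma, the log2-fold change of NO08G00280 over the WT was 0.03 for M1 (95% interval -0.44 to 0.51) and -0.15 for M2 (-0.62 to 0.32), and that of NO06G02500 was 0.34 for M3 (adjusted p = 0.0435) and -0.02 for M4 (95% interval -0.16 to 0.13).

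The 5 genes spanned a wide range of levels in the same order in M1, M2, M3 and the WT, with the delta-9 gene on top, then the delta-5, delta-12 and delta-6 genes and the elongase gene at the bottom. In the WT, NO16G01570 averaged 1897 ± 63.2 TMM-normalized TPM, at percentile 99.7 of all genes, and NO16G00440 averaged 11.5 ± 1.46, at percentile 23.9. The step between them was made of a 5.38-fold difference in mean level from delta-9 to delta-5, 2.89-fold from delta-5 to delta-12, 1.50-fold from delta-12 to delta-6 and 7.08-fold from delta-6 to the elongase gene, and the WT libraries of neighboring genes did not overlap. In M4 the order of the delta-6 and delta-12 genes was turned round, with every M4 library of NO28G00700 (119.6 to 151) above every M4 library of NO11G02470 (96.4 to 107). In M3 the ranges of these 2 genes overlapped. The narrowest step in M2 was that from NO28G00700 to NO16G00440, which differed 1.51-fold in mean level.

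**Figure D1:**
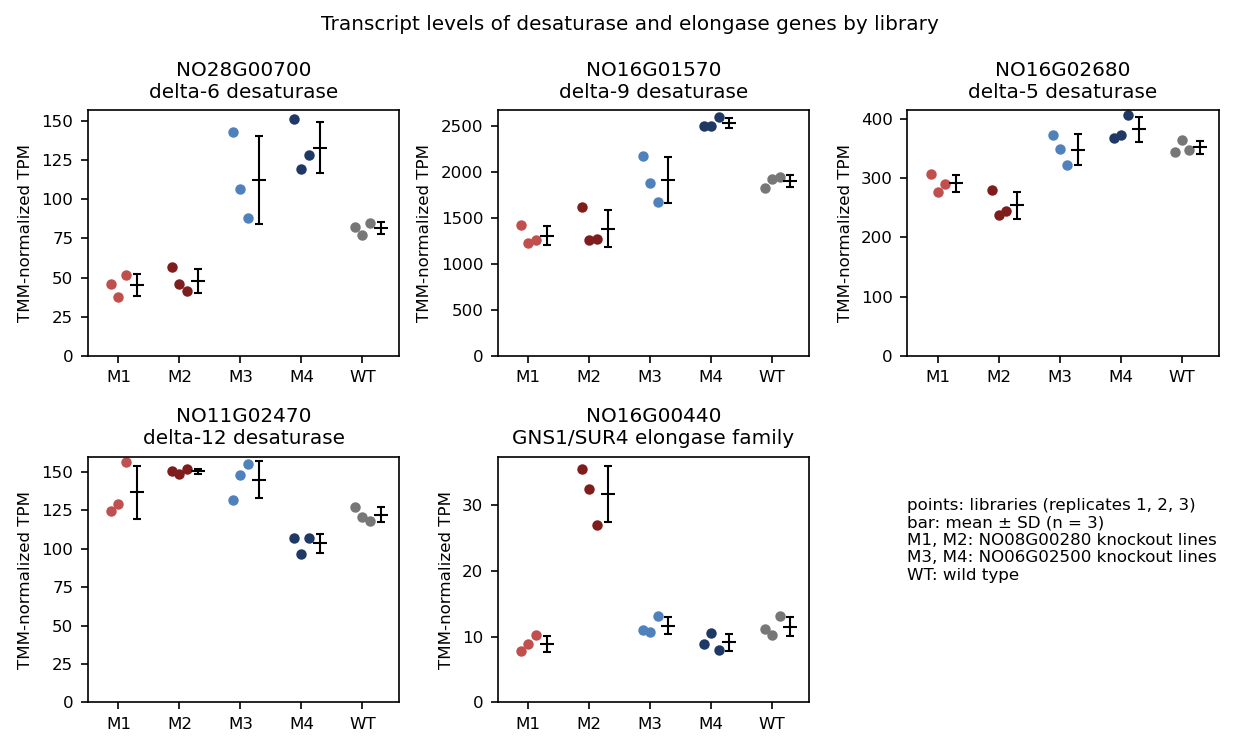
TMM-normalized TPM (y axis, from 0) of the 5 genes in each library of M1, M2, M3, M4 and the WT, with points for libraries and bars for the mean ± SD (n = 3). The delta-6, delta-9 and delta-5 genes sit below the WT in all libraries of M1 and M2, and the elongase gene stands apart in M2, at 27.0 to 35.5 against 10.3 to 13.1 in the WT.

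Each line was compared with the same 3 WT libraries by limma, with calls at an adjusted p under 0.05 over all 9440 genes. In M1, 2 of the 5 genes were called, both lower, while 1.73% of all tested genes were called in either direction and 1.13% as lower. In M2 all 5 were called, 3 lower and 2 higher, against 34.7% of tested genes in either direction, 18.2% lower and 16.5% higher. The study's methods set thresholds for differential expression by edgeR, a change above 2-fold with an adjusted p not above 0.001. Applied here to the limma results, they were met by 1 of the 5 in M2 (NO16G00440) and by 3.10% of tested genes. M3 had 0 of 5 called by limma, where 0.985% of tested genes were called, and 2 of 5 at an unadjusted p under 0.05, as 20.6% of tested genes were. M4 had 1 of 5 called, higher, against 5.33% in either direction and 1.64% higher. With both lines of a gene averaged, all 5 were called in the NO08G00280 lines, 3 lower and 2 higher, against 22.0% of tested genes in either direction, 12.1% lower and 9.87% higher. In the averaged NO06G02500 lines 0 of 5 were called by limma, against 0.138%, and 2 of 5 had an unadjusted p under 0.05, against 11.7%. The 5 genes had a median log2-fold change of -0.33 in M1 and -0.46 in M2, against 0.02 in M3 and 0.12 in M4, and that of all tested genes lay between -0.01 and 0.01 in each line.

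**Figure D2:**
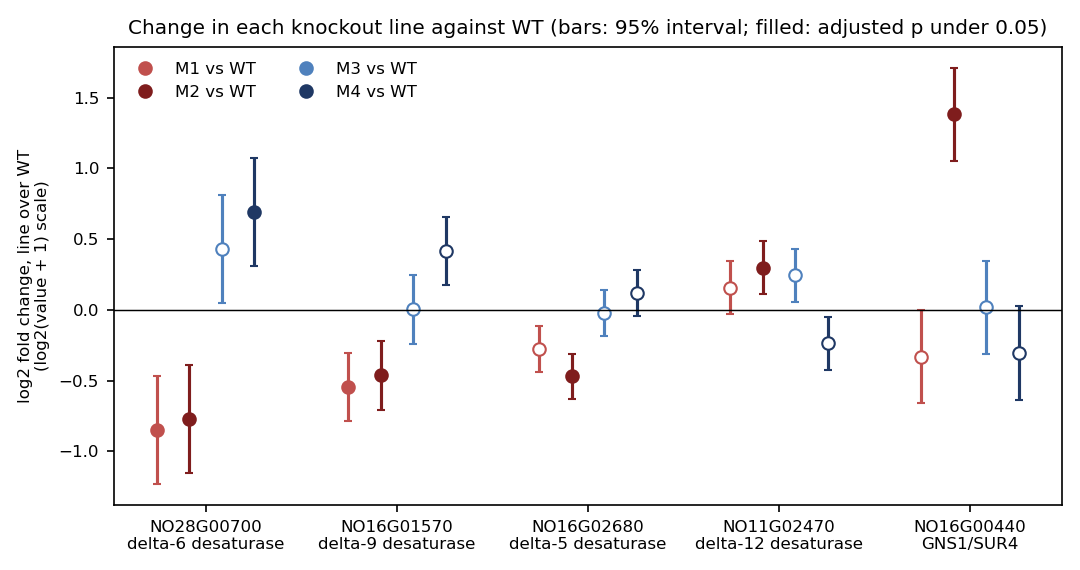
Log2-fold change of each gene in each line over the WT (y axis, log2(value + 1) scale), with 95% intervals and filled points for an adjusted p under 0.05. The delta-6 and delta-9 genes lie below 0 in M1 and M2, and only the delta-6 gene has a filled point above 0 in M4, while the elongase gene in M2 is the highest point, at 1.38.

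NO28G00700, the delta-6 desaturase gene (IMET1v2, chromosome 28, positions 238179 to 241856, minus strand), was lower than in the WT in both NO08G00280 lines and higher in M4. Its levels were 46.0, 37.7 and 51.4 TMM-normalized TPM in M1 and 56.5, 45.6 and 41.3 in M2, against 82.4, 77.2 and 84.8 in the WT. In the NO06G02500 lines they were 143, 106 and 88.1 in M3 and 151, 119.6 and 128 in M4, against the same WT libraries. All M1 and M2 libraries thus lay below the lowest WT library, and all M3 and M4 libraries above the highest. In RNA of a whole culture, fewer cells that transcribe a gene and less of its RNA per cell cannot be told apart. M3 was the most spread of the groups, with a coefficient of variation of 24.9% against 4.81% in the WT.

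On the log2(value + 1) scale, limma gave NO28G00700 a log2-fold change over the WT of -0.85 in M1 (adjusted p = 0.0340) and -0.77 in M2 (adjusted p = 0.00535), with an SE of 0.17 in every line. The changes were 0.43 in M3 (adjusted p = 0.195) and 0.69 in M4 (adjusted p = 0.0436). Mean levels stood at 55.3% (M1), 58.7% (M2), 138% (M3) and 163% (M4) of the WT mean. The call in M1 ended without any 1 of the M1 or WT libraries, without M2 replicate 2 and without M3 replicate 2 (adjusted p from 0.0509 to 0.131), and with the unscaled StringTie TPM, FPKM, quantile normalization or a fit of M1 and WT alone (0.0509 to 0.172). The call in M4 ended without any 1 of the M4 or WT libraries and without M1 replicate 1, M2 replicate 2, M2 replicate 3 or M3 replicate 2 (0.0525 to 0.131), and with the StringTie TPM, quantile normalization or no filter (0.0517 to 0.0586), while the call in M2 held without each of the 15 libraries in turn.

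NO16G01570, the delta-9 desaturase gene (chromosome 16, 474490 to 475569, plus strand), makes one of the most abundant transcripts of these cultures. It was measured at 1421, 1229 and 1259.8 TMM-normalized TPM in M1 and at 1618, 1263 and 1269.9 in M2, against 1825, 1924 and 1943 in the WT. All libraries of M1 and M2 were below all WT libraries. M3 had 2176, 1883 and 1674, and M4 had 2499.8, 2501 and 2598, against the same WT values. The M3 libraries fell on both sides of the WT range, whereas the 3 M4 libraries were close together and above it.

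Relative to the WT, limma put NO16G01570 at a log2-fold change of -0.54 in M1 (SE 0.11, adjusted p = 0.0333) and of -0.46 in M2, with the same SE (adjusted p = 0.00691). In M3 it was 0.00 with a 95% interval of -0.24 to 0.24, and in M4 it was 0.42 (SE 0.11), which missed the threshold (adjusted p = 0.0510). The call in M1 ended without M1 replicate 2 or 3, M3 replicate 2, M4 replicate 2 or any 1 WT library (adjusted p from 0.0509 to 0.129) and with the StringTie TPM, FPKM, quantile normalization or a fit of M1 and WT alone (0.0509 to 0.178), and that in M2 ended with quantile normalization (-0.39, adjusted p = 0.0515). In M4, the threshold was passed without M2 replicate 1, M3 replicate 1 or M3 replicate 3 (adjusted p from 0.0333 to 0.0411) and under 7 of the 14 other settings (0.0301 to 0.0498), among them quantile normalization, with a change of 0.64.

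NO16G02680, the delta-5 desaturase gene (chromosome 16, 772846 to 776566, minus strand), was lower than in the WT in M2. It reached 307, 277 and 291 TMM-normalized TPM in M1 and 281, 239 and 244 in M2, against 345, 365 and 347 in the WT. M3 had 374, 349 and 321 and M4 had 369, 372 and 406, against the same WT values. Every M1 and M2 library was below the WT range and every M4 library above it, the nearest M4 library by a small margin, while the M3 libraries straddled it. Limma called the gene lower in M2 (log2-fold change -0.47, SE 0.07, adjusted p = 0.000619), and this call held under every alternative run. In M1 the change was -0.27 (SE 0.07) and missed the threshold (adjusted p = 0.0908), which it passed with arrayWeights (-0.31, adjusted p = 0.0276). The values were -0.02 in M3 (95% interval -0.18 to 0.14) and 0.12 in M4 (95% interval -0.05 to 0.28).

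NO11G02470, the delta-12 desaturase gene (chromosome 11, 786032 to 787983, plus strand), was the one desaturase gene of the 4 that was higher in M2. Its levels were 150.2, 149 and 152 TMM-normalized TPM in M2 and 125, 129 and 157 in M1, against 127, 121 and 118 in the WT. M2 was therefore very even, with a coefficient of variation of 1.10% against 3.99% in the WT, and lay wholly above the WT range, which M1 overlapped. In the NO06G02500 lines it had 132, 148 and 155 in M3 and 107, 96.4 and 107 in M4, against the same WT values. The 2 lines lay on opposite sides of the WT range without overlap, M3 above and M4 below.

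Over the WT, NO11G02470 had a log2-fold change of 0.30 in M2 (SE 0.09, limma adjusted p = 0.0180), 0.16 in M1 (adjusted p = 0.370), 0.24 in M3 (adjusted p = 0.152) and -0.24 in M4 (adjusted p = 0.136). With arrayWeights the change in M3 passed the threshold (0.29, adjusted p = 0.0152). The call in M2 ended without M2 replicate 3, WT replicate 2 or WT replicate 3 (adjusted p from 0.0506 to 0.0599). In the averaged NO08G00280 lines the change was 0.23 (adjusted p = 0.0462), and this call ended without any 1 of the M2 or WT libraries and without M1 replicate 2, M1 replicate 3, M3 replicate 2, M4 replicate 1 or M4 replicate 3 (adjusted p from 0.0505 to 0.150), and with median-ratio scaling, a fit without trend or a fit of the compared groups alone (0.0532 to 0.0666).

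NO16G00440, the gene of the GNS1/SUR4 elongase family (chromosome 16, 162640 to 163707, plus strand), was higher than in the WT in M2 and was called in no other line. It had 35.5, 32.4 and 27.0 TMM-normalized TPM in M2 and 7.78, 8.84 and 10.2 in M1, against 11.1, 10.3 and 13.1 in the WT. M3 had 11.1, 10.7 and 13.1 and M4 had 8.92, 10.5 and 7.98, against the same WT values. All M2 libraries were above every other library of the series, and all M1 libraries were below the lowest WT library, although by a small margin for M1 replicate 3.

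In M2, NO16G00440 stood at 275% of its WT mean, a log2-fold change of 1.38 (SE 0.15) with a limma adjusted p of 5.82e-05, and the call held under each of the 14 other settings and without each library. Its change over the WT came to -0.33 in M1 (adjusted p = 0.284), to 0.02 in M3 (95% interval -0.31 to 0.35) and to -0.30 in M4 (adjusted p = 0.268). The call of 0.52 in the averaged NO08G00280 lines (adjusted p = 0.0161) joined changes of opposite sign in M1 and M2, and it ended without WT replicate 2 (0.45, adjusted p = 0.0839).

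The clones of each knockout were then compared with each other within the same fit. Between M2 and M1, 1 of the 5 genes was called, with 25.9% of tested genes called in either direction and 11.8% as higher in M2. This was the elongase gene, with a log2-fold change of 1.71 (SE 0.15, limma adjusted p = 3.54e-05), which also met the thresholds of the study's methods, as 1.50% of tested genes did. The delta-6 and delta-9 genes differed between M2 and M1 by 0.08 each (95% intervals -0.30 to 0.46 and -0.16 to 0.32), and the delta-5 gene by -0.20 (adjusted p = 0.0719). The delta-5 difference passed the threshold without M2 replicate 1 (-0.27, adjusted p = 0.0279) and with arrayWeights (-0.18, adjusted p = 0.0430). That of the delta-12 gene, 0.14 (adjusted p = 0.254), passed it without M1 replicate 3 (0.24, adjusted p = 0.0272) and with arrayWeights (0.19, adjusted p = 0.0203). Between M4 and M3, 2 of the 5 genes were called, 1 higher and 1 lower in M4, against 25.6% of tested genes in either direction, 11.8% higher and 13.9% lower. The delta-9 gene was higher in M4 than in M3 (0.41, SE 0.11, adjusted p = 0.0185) and the delta-12 gene lower (-0.48, SE 0.09, adjusted p = 0.00299). The delta-12 call held without each library in turn, whereas the delta-9 call ended without M3 replicate 2 or 3 or M4 replicate 2 or 3 (adjusted p from 0.0506 to 0.0759) and in a fit of M4 and M3 alone (0.0635).

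Set against each other, the lines of the 2 knockouts differed in all 5 genes, 3 lower and 2 higher in the NO08G00280 lines, where 27.5% of tested genes were called in either direction, 13.9% lower and 13.5% higher. The delta-6 gene showed the widest difference, with a log2-fold change of -1.37 in the NO08G00280 lines over the NO06G02500 lines (SE 0.12, limma adjusted p = 2.64e-05), and was the one of the 5 to meet the study's thresholds, as 0.964% of tested genes did. Its 6 libraries in M1 and M2 ranged from 37.7 to 56.5 and its 6 libraries in M3 and M4 from 88.1 to 151. The delta-9 gene differed by -0.71 (adjusted p = 8.68e-05) and the delta-5 gene by -0.42 (adjusted p = 0.000197), again with no overlap between the 6 libraries of each knockout. The delta-12 gene was higher by 0.22 (adjusted p = 0.0167) and the elongase gene by 0.67 (adjusted p = 0.000798), and in these 2 genes the libraries overlapped. In the delta-12 gene M3 was level with M1 and M2, and only M4 (96.4 to 107) was below them. In the elongase gene only M2 (27.0 to 35.5) was above M3 and M4. M1 (7.78 to 10.2) was level with M4 there, and each of its libraries was below every M3 library (10.7 to 13.1). All 5 calls held under each of the 14 alternative settings and without each of the 15 libraries.

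A ratio of 2 genes within a library does not depend on the scaling between libraries. Therefore 4 ratios were formed and tested by exact permutation over libraries (two-sided, 12 tests with Benjamini-Hochberg adjustment). They share genes and use the values already compared gene by gene, so they are no independent evidence of those differences. The 6 libraries of a knockout were taken as exchangeable units although they come from 2 clones. The p-values of these tests therefore do not measure the spread between clones and can be too small. The ratio of the delta-12 to the delta-6 transcript level was 2.71, 3.42 and 3.04 in M1 and 2.66, 3.26 and 3.68 in M2, against 1.55, 1.56 and 1.39 in the WT. In M3 it was 0.922, 1.39 and 1.76 and in M4 it was 0.708, 0.807 and 0.835, against the same WT ratios. The M1 and M2 ratios exceeded all the others, the M4 ratios were the lowest, and M3 spread across the WT range. In log2 units the 6 libraries of the NO08G00280 lines exceeded the WT by 1.05 (2.08-fold, exact p = 0.0238, the smallest that 6 against 3 libraries allow, adjusted p = 0.0317). The same 6 libraries exceeded the 6 of the NO06G02500 lines by 1.62 (3.07-fold, exact p = 0.00216, the smallest that 6 against 6 allow, adjusted p = 0.00866). The NO06G02500 lines differed from the WT by -0.56 (exact p = 0.167, adjusted p = 0.182), and without M3 replicate 3 by -0.72 (adjusted p = 0.0429).

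The delta-5 to delta-6 ratio averaged 6.55 ± 0.85 in M1 and 5.37 ± 0.49 in M2, against 4.34 ± 0.35 in the WT (SD, n = 3 each). It averaged 3.18 ± 0.53 in M3 and 2.91 ± 0.40 in M4, so that the delta-6 transcript moved further than the delta-5 transcript in both directions. These differences from the WT were 0.45 log2 units for the NO08G00280 lines and -0.52 for the NO06G02500 lines (exact permutation, p = 0.0238 and adjusted p = 0.0317 for each). The delta-9 to delta-6 ratio differed in the NO06G02500 lines from the WT by -0.36 log2 units (exact p = 0.0238, adjusted p = 0.0317), and its difference in the NO08G00280 lines was 0.32 (exact p = 0.0476, adjusted p = 0.0571). The delta-12 to delta-9 ratio was 0.73 log2 units higher in the NO08G00280 lines than in the WT (exact p = 0.0238, adjusted p = 0.0317), and the difference in the NO06G02500 lines was -0.21 (exact p = 0.524), with values from -0.35 to -0.10 when 1 library was left out. With any 1 WT library left out, none of the differences from the WT passed after adjustment (adjusted p of 0.0857 or 0.0952 where they had passed), because 6 against 2 libraries cannot give a small enough p. For a single line, 3 against 3 libraries cannot go below an exact p of 0.10, so the ratios of single lines are given as values.

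**Figure D3:**
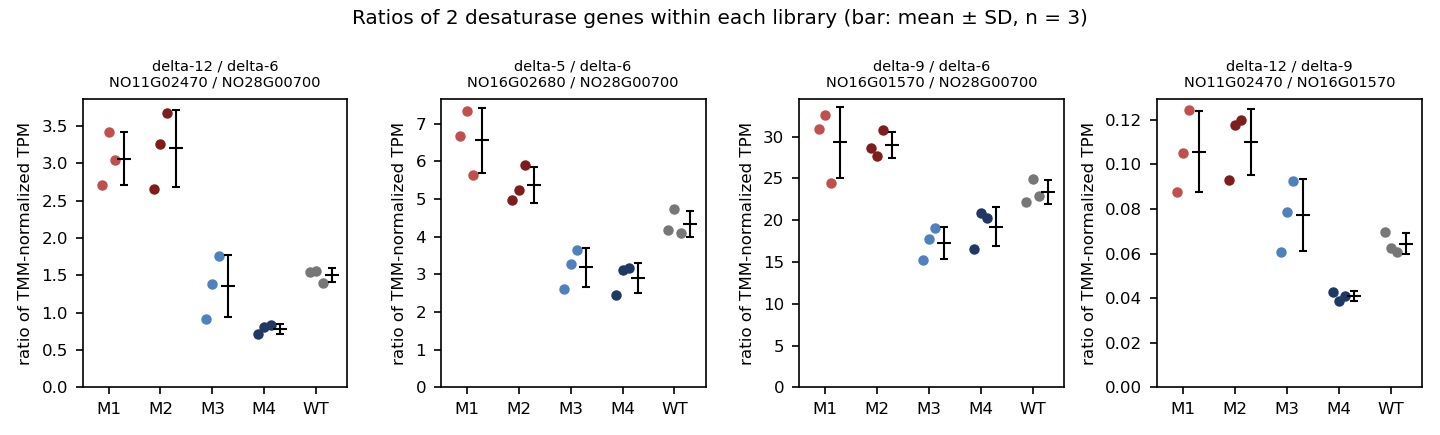
Ratios of the transcript levels of 2 desaturase genes within each library (y axes, from 0), with points for libraries and bars for the mean ± SD (n = 3). The delta-12 to delta-6 ratio is 2.66 to 3.68 in M1 and M2, 0.708 to 1.76 in M3 and M4, and 1.39 to 1.56 in the WT.

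Across the 15 libraries the delta-6, delta-9 and delta-5 genes varied together. Pearson's r of log2 values was 0.94 between delta-9 and delta-6, 0.91 between delta-9 and delta-5 and 0.88 between delta-5 and delta-6. After each group's mean was removed, which leaves the variation among cultures of 1 line, r was 0.75, 0.92 and 0.64 for the same pairs. The delta-12 gene ran against the delta-9 gene (r = -0.74, and -0.46 within groups) and the elongase gene against the delta-5 gene (r = -0.70, and -0.24 within groups). These are descriptions over 15 libraries, of which those of a line share a clone, with no test.

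Tested genes other than the 5 were ranked by Pearson's r with each of the 5 over the 15 libraries. For the delta-9 gene the closest was NO11G02480 (r = 0.97, and 0.88 within groups), for the delta-6 gene NO08G02420 (r = 0.95, and 0.65 within groups) and for the delta-5 gene NO05G02250 (r = 0.96, and 0.73 within groups). The delta-12 gene was closest to NO12G02760 (r = 0.97, and 0.84 within groups), and the elongase gene to NO05G02650 (r = 0.97, but 0.27 within groups). With the 5 left out, 133 tested genes had r above 0.9 with the delta-12 gene and 60 with the delta-5 gene. There were 36 for the elongase gene, 24 for the delta-9 gene and 13 for the delta-6 gene.

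Several of the 5 genes lie close to other genes, and the library kit did not mark strand, so reads in a shared stretch cannot be assigned to one of them. NO28G00700 overlaps NO28G00690 on the opposite strand by 609 bases. NO28G00690 averaged 28.6 ± 6.11 TMM-normalized TPM (M1), 27.6 ± 2.46 (M2), 36.5 ± 5.61 (M3) and 31.8 ± 4.27 (M4), against 31.0 ± 1.52 in the WT (SD, n = 3 each), and limma called it in none of the lines (log2-fold changes from -0.16 to 0.22). The delta-5 gene has neighbors 42 bases away (NO16G02670, same strand) and 16 bases away (NO16G02690, opposite strand), and NO16G02690 was also lower in M2 than in the WT (-0.67, adjusted p = 0.0108). NO11G02480, the gene most like the delta-9 gene in its pattern, starts 472 bases beyond the end of the delta-12 gene on the same strand of chromosome 11. It had 54.5, 46.6 and 44.3 in M1 and 191, 176 and 152 in M4, against 84.0, 90.0 and 103 in the WT, with log2-fold changes of -0.92 in M1 and 0.90 in M4. The adjacent delta-12 gene had 0.16 in M1 and -0.24 in M4. Since NO11G02480 was picked for its likeness to the delta-9 gene in these libraries, its values are a description.

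The 5 genes were read beside 9 other genes of acyl-lipid metabolism, most of which had been listed by the study as differentially expressed in these same libraries, so that their count is no independent evidence of a direction. In M1, 1 of the 9 was called, lower, against 1.73% of all tested genes in either direction and 1.13% lower. In M2, 6 of the 9 were called, all lower, against 34.7% in either direction and 18.2% lower, and all 6 met the study's thresholds, against 3.10%. In M3 and M4, 0 of the 9 were called by limma, against 0.985% of tested genes in M3 and 5.33% in M4. At an unadjusted p under 0.05 there were 5 of the 9 in M3, against 20.6% of tested genes, and 1 in M4, against 21.3%. The 9 genes had a median log2-fold change of -0.37 in M1 and -1.09 in M2, against -0.27 in M3 and -0.12 in M4. The 6 genes that fell in M2 included 3 genes annotated sulfoquinovosyldiacylglycerol 2, a synthase that makes the sulfolipid of photosynthetic membranes. The others were 2 lipase genes and the gene of the lipid droplet surface protein, the main coat protein of oil droplets in Nannochloropsis. The remaining lipase gene, NO05G00120, was not called in M2. It lay near the floor, at 3.1, 0 and 1.7 in M2 and 6.3, 0 and 4.1 in the WT. NO07G01500, of the diacylglycerol acyltransferase family, was not called in M2 either.

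NO11G02550, the lipid droplet surface protein gene, was the one of the 9 called in both M1 and M2. It averaged 1072 ± 174 TMM-normalized TPM in M1 and 559.6 ± 57.3 in M2, against 1819 ± 53.5 in the WT (SD, n = 3 each), with log2-fold changes of -0.78 in M1 (adjusted p = 0.0120) and -1.70 in M2 (adjusted p = 3.22e-06). NO02G00050, annotated PTPLA, a family of dehydratases that act after the elongase in the elongation cycle of yeast and plants, was called in none of the lines. In M2 its log2-fold change was 0.97, with an SE of 0.52 (adjusted p = 0.174), where the elongase gene rose by 1.38. Between M2 and M1, 6 of the 9 were lower in M2, against 14.1% of tested genes lower and 25.9% in either direction, while the delta-6 and delta-9 genes differed by 0.08.

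**Figure D4:**
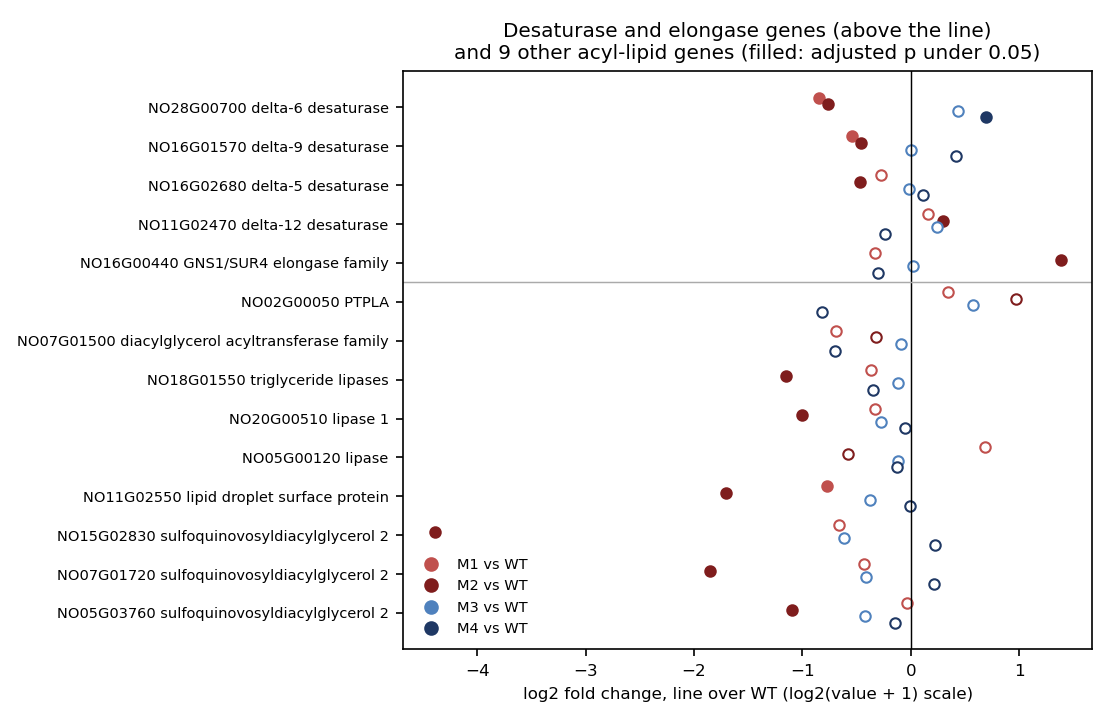
Log2-fold change over the WT (x axis, log2(value + 1) scale) of the 5 genes, above the gray line, and of 9 other acyl-lipid genes, below it, in M1, M2, M3 and M4, with filled points for an adjusted p under 0.05. In M2, 6 of the 9 lie between -4.39 and -1.01, beyond the delta-6 gene at -0.77, whereas in M1 the delta-6 gene, at -0.85, is the lowest of all 14 genes.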

How the data were processed

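The deposited expression matrix holds a signal: gene-level TPM scaled by the authors with TMM, for which the study's methods name RSEM. In each library its values for well-transcribed genes equal the deposited StringTie TPM times 1 factor. This factor lay between 0.947 and 1.05 among libraries and varied by at most 0.00103% among genes of a library. The settings with the StringTie TPM or FPKM thus differ in scaling and are no second quantification. The authors prepared NEBNext Ultra libraries from TRIzol RNA, sequenced paired reads on an Illumina HiSeq and aligned them with STAR in nf-core/rnaseq to IMET1v2. The deposited StringTie tables give TPM, FPKM and coverage per gene and library; their coverage is a signal that gave relative depth. No deposited column held counts, so no count test was run.

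Values were log2-transformed with a pseudocount of 1, genes with a mean of at least 1 were kept, and group means were fitted to all 15 libraries with limma 3.58.1 in R 4.3.3 (eBayes with trend, two-sided, Benjamini-Hochberg over 9440 genes, 10 residual degrees of freedom). A fold change on this scale understates that of low genes. Exact permutation tests used scipy 1.17.1. The limma code was tested on simulated data, and the permutation function only on a small set of known values. Named were the 5 genes, both knocked-out genes, 9 acyl-lipid genes, overlapping and nearest genes, and the 3 other genes most like each of the 5. These genes and lists were chosen with earlier results of these data known. Lines share the 3 WT libraries, and every comparison was refitted under 14 other settings and without each library.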

Additional observations from a re-analysis of the deposited data

Results flagged for a closer look

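The changes in M2 and M1, both clones of the NO08G00280 knockout, differed in the elongase gene NO16G00440 by 1.71 on the log2(value + 1) scale (limma adjusted p = 3.54e-05), the 3 M2 libraries being above the 3 M1 libraries. M4 and M3, both clones of the NO06G02500 knockout, differed in the delta-9 gene NO16G01570 by 0.41 (adjusted p = 0.0185) and in the delta-12 gene NO11G02470 by -0.48 (adjusted p = 0.00299), with M4 above M3 in every library of the delta-9 gene and below it in every library of the delta-12 gene. The NO08G00280 lines differed from the NO06G02500 lines in all 5 genes, by -1.37 in NO28G00700, -0.71 in NO16G01570, -0.42 in NO16G02680, 0.22 in NO11G02470 and 0.67 in NO16G00440. The averages of NO16G01570, NO11G02470 and NO16G00440 join lines that differ among themselves. The part of the clone and that of the edited gene in these differences cannot be told apart.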

How the results depend on the processing

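Over 45 fold changes of the 5 genes, the 14 other settings and the 15 fits without 1 library gave 1305 values, of which 1229 kept their side of the threshold, 60 lost and 16 gained a call. The sign changed in 22 values, all of them not called, and in 0 called values. The number of the 5 genes called in M1 against the WT (2) was 0 with the StringTie TPM, with FPKM, with quantile normalization and in a fit of the compared groups only, and 3 with arrayWeights. In M4 (1) it was 2 with a pseudocount of 5, a minimum mean of 5, FPKM, median-ratio scaling, the robust fit or arrayWeights, and 0 with no filter or with the StringTie TPM. With arrayWeights it was 1 in M3 (0) and 3 between M2 and M1 (1), and between M4 and M3 (2) it was 1 in a fit of those groups only. Without 1 library the number ranged from 0 to 2 in M1, from 0 to 2 in M4, from 1 to 2 between M2 and M1, from 1 to 2 between M4 and M3, and from 3 to 5 in the NO08G00280 lines, where 3 came without WT replicate 2.

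Without 1 library, the log2 difference from the WT in the NO08G00280 lines ranged from 1.00 to 1.10 for the delta-12 to delta-6 ratio, from 0.39 to 0.51 for delta-5 to delta-6, from 0.28 to 0.37 for delta-9 to delta-6 and from 0.69 to 0.79 for delta-12 to delta-9. In the NO06G02500 lines it ranged from -0.72 to -0.46 for delta-12 to delta-6, from -0.58 to -0.46 for delta-5 to delta-6, from -0.40 to -0.31 for delta-9 to delta-6 and from -0.35 to -0.10 for delta-12 to delta-9. Over all tested genes, the count called in M1 (163) was 21 in a fit of the compared groups only and 724 with arrayWeights, in M3 (93) 10 and 1371, and in M4 (503) 129 and 809. The count in M3 was 53 with quantile normalization and 49 without trend, that between M4 and M3 (2421) was 1512 in a fit of those groups, that between M2 and M1 (2443) 3849 and that in the NO06G02500 lines (13) 31 with arrayWeights. Without 1 library the counts ranged from 28 to 260 in M1, 10 to 451 in M3, 84 to 651 in M4, 1512 to 2762 between M2 and M1, 1391 to 2604 between M4 and M3, 966 to 2294 in the NO08G00280 lines (2078) and 7 to 19 in the NO06G02500 lines. The split of calls into higher and lower moved with the StringTie TPM, to 2048 and 1333 in M2 (1554 and 1717), 43 and 38 in M3 (61 and 32), 203 and 239 in M4 (155 and 348), 1397 and 1058 between M2 and M1 (1112 and 1331) and 1216 and 829 in the NO08G00280 lines (932 and 1146). Between M4 and M3 (1112 and 1309) it was 1243 and 1025 with the StringTie TPM and 1226 and 1176 with median-ratio scaling, and between the lines of the 2 knockouts (1278 and 1315) 1444 and 1122 with the StringTie TPM. FPKM gave 2113 and 1279 in M2, 206 and 253 in M4, 1576 and 997 between M2 and M1, and 1223 and 825 in the NO08G00280 lines, and quantile normalization 3 and 11 in the NO06G02500 lines (5 and 8). With the replicate number as a block, the counts were 64 in M1, 17 in M3 and 322 in M4, and the numbers of the 5 genes called did not change. The replicate numbers did not pair the libraries, since deviations from group means correlated between -0.07 and 0.09 for libraries of the same number. The causes of these shifts were not tested. Read counts behind single values are unknown, so no counting interval is given.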
